A study of Mus musculus with 57 samples.

Results

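The 10 genes described here belong to oligodendrocytes and their myelin: Mbp, Mog, Mag, Mobp, Cnp, Olig1, Olig2, Sox10, Myrf and Pdgfra. They were taken by name from 24963 autosomal genes of the curated RefSeq set on mm10, by a rule that used no measured value, though with earlier results of these data known. Histone H3K4me3, H3K27ac and H3K27me3 had been profiled by chromatin immunoprecipitation and sequencing in brain cortex and gastrocnemius muscle of 10 PSAPP mice, an Alzheimer model that carries human disease mutations in the genes of the amyloid precursor protein and a presenilin. For each mark there were 9 cortex and 10 gastrocnemius libraries, 57 in all, from mice aged 13 months of both sexes, which were pooled because the labels do not give the sex of a sample. All mice carried the PSAPP transgenes, had been singly housed on a modified AIN-93 diet, and no wild-type group was analysed here, so each comparison is between 2 tissues of the same model. Of the 10 mice, 9 gave both tissues.

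Oligodendrocytes wrap axons of the central nervous system in myelin, a stack of membrane held together by a small set of abundant proteins, and they arise from precursor cells that carry the receptor Pdgfra. Skeletal muscle has no oligodendrocytes, but its nerves hold Schwann cells, which make the myelin of the peripheral nervous system and use several of the same proteins and regulators. H3K4me3 marks active or poised promoters, H3K27ac marks active promoters and enhancers, and H3K27me3 is the mark that Polycomb proteins set on silenced genes. Each library came from bulk tissue, so fewer cells of a type and less mark per cell cannot be told apart.

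Values are the reads of called peaks scaled to 1 M reads in the autosomal peaks of the library (RPM), and a window with no called peak counts as 0. The window at the transcription start site (TSS) reached 1 kb to each side, and the gene body ran from 1 kb after the TSS to the end of the gene. Differences are cortex minus gastrocnemius on the log2 scale, from edgeR with TMM scaling. They were called at a false discovery rate (FDR) under 0.1 over all genes tested. The SE given with them is the absolute difference divided by the square root of the test's F, because edgeR reports no SE. The p of the test can be larger than this SE would give. The reads of a peak were shared evenly over its length. Autosomal peaks held 9.03 to 18.6 M reads per H3K4me3 library, 3.90 to 27.04 M for H3K27ac and 2.99 to 18.2 M for H3K27me3. Cortex replicate 9 was the shallowest H3K27ac library, and gastrocnemius replicate 5 was the deepest H3K27me3 library, with 484 Mb in peaks. Summed over each list, marker levels followed the tissue labels. The 6 neuron markers summed to 134 to 162 RPM of H3K4me3 in cortex against 26.9 to 39.2 in gastrocnemius, and the 6 skeletal muscle markers to 34.5 to 51.3 against 95.6 to 133. Of the muscle markers 5 were called lower in cortex, Myh4, Ckm and Tnnt3 with no peak there, but Mylpf was higher in cortex (33.2 to 50.4 RPM against 21.3 to 31.5, log2 difference 0.45, FDR 0.000134) and made up most of the cortex sum. Of the neuron markers 5 were called higher in cortex, and Camk2a went against its label, with no peak in cortex and one in 10 of 10 gastrocnemius libraries (median 19.2 RPM). The astrocyte marker Aqp4 had no peak in either tissue. Leaving out the shallow H3K27ac library changed no call on a member, and leaving out the deep H3K27me3 library ended the calls of Mobp at the TSS and of Mog in width given below.

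The members differed in which marks their promoters carried, and the sequences of 4 that differ in this are shown; other members combine the marks in other ways. These are the 250 bases before the TSS as given by RefSeq on GRCm38.p6, the build that mm10 names, written 5′ to 3′ along the gene with each CG in capitals. Mobp (chr9:120149492-120149741, plus strand) had H3K4me3 and H3K27ac peaks in cortex and none in gastrocnemius. Cnp (chr11:100574689-100574938, plus strand) carried both marks in every library of both tissues. Olig2 (chr16:91225300-91225549, plus strand) held H3K27me3 in every library of both tissues, with H3K4me3 in 9 of 9 cortex and 7 of 10 gastrocnemius libraries and H3K27ac in cortex alone. Pdgfra (chr5:75152001-75152250, plus strand) was the member with more active marks in muscle.
Mobp: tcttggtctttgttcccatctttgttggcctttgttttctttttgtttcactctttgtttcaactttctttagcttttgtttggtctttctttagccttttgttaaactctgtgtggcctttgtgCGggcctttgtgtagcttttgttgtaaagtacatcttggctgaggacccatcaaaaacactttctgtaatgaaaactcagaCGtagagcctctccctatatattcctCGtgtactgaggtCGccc
Cnp: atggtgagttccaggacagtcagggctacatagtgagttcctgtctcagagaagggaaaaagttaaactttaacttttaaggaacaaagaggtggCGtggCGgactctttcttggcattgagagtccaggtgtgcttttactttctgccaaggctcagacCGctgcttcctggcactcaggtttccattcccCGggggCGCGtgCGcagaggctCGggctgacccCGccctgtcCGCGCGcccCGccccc
Olig2: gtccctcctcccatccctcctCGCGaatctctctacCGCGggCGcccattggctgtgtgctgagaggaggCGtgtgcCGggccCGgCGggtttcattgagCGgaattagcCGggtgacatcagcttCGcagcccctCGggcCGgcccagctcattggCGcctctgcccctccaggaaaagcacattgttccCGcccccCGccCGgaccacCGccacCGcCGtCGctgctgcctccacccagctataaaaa
Pdgfra: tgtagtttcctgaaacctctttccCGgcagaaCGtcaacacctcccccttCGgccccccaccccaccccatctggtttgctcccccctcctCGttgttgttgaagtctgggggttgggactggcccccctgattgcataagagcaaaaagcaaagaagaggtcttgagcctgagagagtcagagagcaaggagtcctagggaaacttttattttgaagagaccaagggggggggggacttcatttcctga

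These windows held 4 CG dinucleotides in Mobp, 13 in Cnp, 22 in Olig2 and 4 in Pdgfra. The corresponding windows of Mog and Mag held 2 and 3. Over 31396 RefSeq promoters the median was 6, and 15.3% held at least as many as Olig2. The letters TATAAA, searched on both strands, were present in Olig2 and in 12.4% of all these promoters. ACAAAG was found in Mag, Mobp and Cnp and in 16.3% of all promoters, AACAAT in Olig2 and in 9.26%, and CAGCTG in none of the 6 member windows and in 13.0% of all.

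H3K4me3 separated the tissues at most members. All 10 genes had a peak at the TSS in every cortex library. In gastrocnemius, Mog and Mobp had no peak in any library, Mag had one in 2 of 10, and the others in 7 to 10. The edgeR quasi-likelihood test called 8 members higher in cortex, where 31.9% of all genes tested were called in that direction, and 1 lower, against 26.9%. The median log2 difference of the 10 members was 1.86, and over all 15952 genes tested it was 0.04.

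Among the myelin proteins, Mbp (chromosome 18, plus strand) encodes myelin basic protein, which holds the inner faces of the membrane together. Its H3K4me3 in cortex ranged from 11.5 to 17.5 RPM with a median of 12.8, and in gastrocnemius from 0 to 6.59 with a median of 2.62. The tissues did not overlap, and the difference was 1.91 ± 0.52 on the log2 scale (SE; FDR 0.0039). Mog (chr17:37010740-37023398, minus strand), the myelin oligodendrocyte glycoprotein of the outermost sheath, had 4.25 to 8.48 RPM in cortex with a median of 5.66. Mobp (chr9:120149742-120181488, plus strand), another structural protein of central myelin, had 3.94 to 9.86 RPM with a median of 6.31. Both genes had peaks in 9 of 9 cortex and 0 of 10 gastrocnemius libraries (Fisher's exact test, FDR 0.000227), and no fold is given because no muscle library had a peak. Mag (chr7:30899175-30914922, minus strand) encodes the myelin-associated glycoprotein of the innermost wrap. It had 9.68 to 18.6 RPM in cortex with a median of 12.1, whereas in gastrocnemius 8 libraries had no peak and the highest reached 5.23 (log2 difference 3.68 ± 0.97, FDR 0.00287). Peak calls separated the tissues for Mog, Mag and Mobp, 3 members in all, where 5.03% of genes with a peak were called in this direction. Without the lowest-scoring peaks, or with equally many peaks per library, 5 members passed, with Mbp (FDR 0.00897 and 0.0323) and Olig2 (FDR 0.00897 and 0.000171) added.

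Cnp (chr11:100574939-100581739, plus strand), which encodes an enzyme of the non-compact myelin, behaved otherwise. It carried H3K4me3 in all 19 libraries, at 19.1 to 29.1 RPM in cortex with a median of 23.8 and at 13.3 to 20.4 in gastrocnemius with a median of 16.5. The ranges overlapped, and the scaled difference of 0.21 ± 0.12 did not pass the test (FDR 0.16). This call depended on the processing. Without the edgeR TMM factors the difference was 0.53 (FDR 0.000138), but that setting moved the median of all genes from 0.04 to 0.34 and the share of higher genes among those called from 54.3% to 79.4%. It was also called with a window of 3 kb (0.49, FDR 0.000421), with uncalled windows set to the lowest read density (0.42, FDR 0.00329), with the mouse as block (0.25, FDR 0.0905), when all reads of the overlapping peaks were counted (0.93, FDR 5.4e-12) and without gastrocnemius replicate 6 (0.25, FDR 0.0743).

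The transcription factors of the lineage kept some H3K4me3 in muscle. Olig1 (chr16:91269769-91271939, plus strand) and Olig2 (chr16:91225550-91228677, plus strand) are neighbouring basic helix-loop-helix genes that set the oligodendrocyte fate. Sox10 (chr15:79154913-79164490, minus strand) is a regulator of oligodendrocytes and of neural crest glia, and Myrf (chr19:10208271-10240748, minus strand) is the myelin regulatory factor that switches on myelin genes. Olig1 had the highest H3K4me3 among the 10 TSS windows in cortex, from 25.6 to 33.1 RPM with a median of 29.7, and from 0 to 10.6 with a median of 6.65 in gastrocnemius. The difference was 1.87 ± 0.32 (FDR 3.61e-05). Olig2 had 12.1 to 18.9 RPM with a median of 14.4 against 0 to 5.04 with a median of 4.14, a difference of 1.85 ± 0.61 (FDR 0.0141). The tissues overlapped in neither gene. Sox10 ranged from 7.48 to 15.0 RPM in cortex (median 11.5) and from 0 to 6.69 in gastrocnemius (median 3.44), 1.39 ± 0.39 apart (FDR 0.00454). The tissues did not overlap for Sox10 or for Myrf. Myrf differed by 0.98 ± 0.39 (FDR 0.0377), from 5.95 to 12.5 RPM (median 9.83) against 0 to 5.36 (median 4.06). The Myrf call was lost without the lowest-scoring 25% of peaks (FDR 0.128) and with equally many peaks per library (FDR 0.127), although the difference itself was larger there (1.93 and 1.62). In 1 of the 10 gastrocnemius libraries each, Olig1, Sox10 and Myrf had no peak, and for Olig2 this was so in 3.

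Pdgfra went the other way. This gene (chr5:75152251-75198206, plus strand) encodes the receptor for platelet-derived growth factor that marks oligodendrocyte precursors in brain, and it is also carried by fibroblast-like interstitial cells of muscle. Its H3K4me3 ranged from 4.47 to 12.9 RPM in cortex with a median of 9.35 and from 10.6 to 18.9 in gastrocnemius with a median of 16.6. The ranges overlapped through gastrocnemius replicate 3, and the difference was -1.16 ± 0.18 (FDR 9.01e-06). Fibro-adipogenic and fibroblast markers moved in the same direction: 9 genes summed to 18.8 to 28.5 RPM in cortex and to 48.1 to 73.6 in gastrocnemius, with Col3a1, Lum, Dpt and Tcf21 without a peak in cortex and Tcf21 also without one in gastrocnemius. Their part in the Pdgfra result was not tested. For 8 of the 10 members every cortex library was above every gastrocnemius library, as was true of 17.3% of all genes with a peak, and the reverse held for 0 members and 6.39% of genes.

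**Figure D1:**
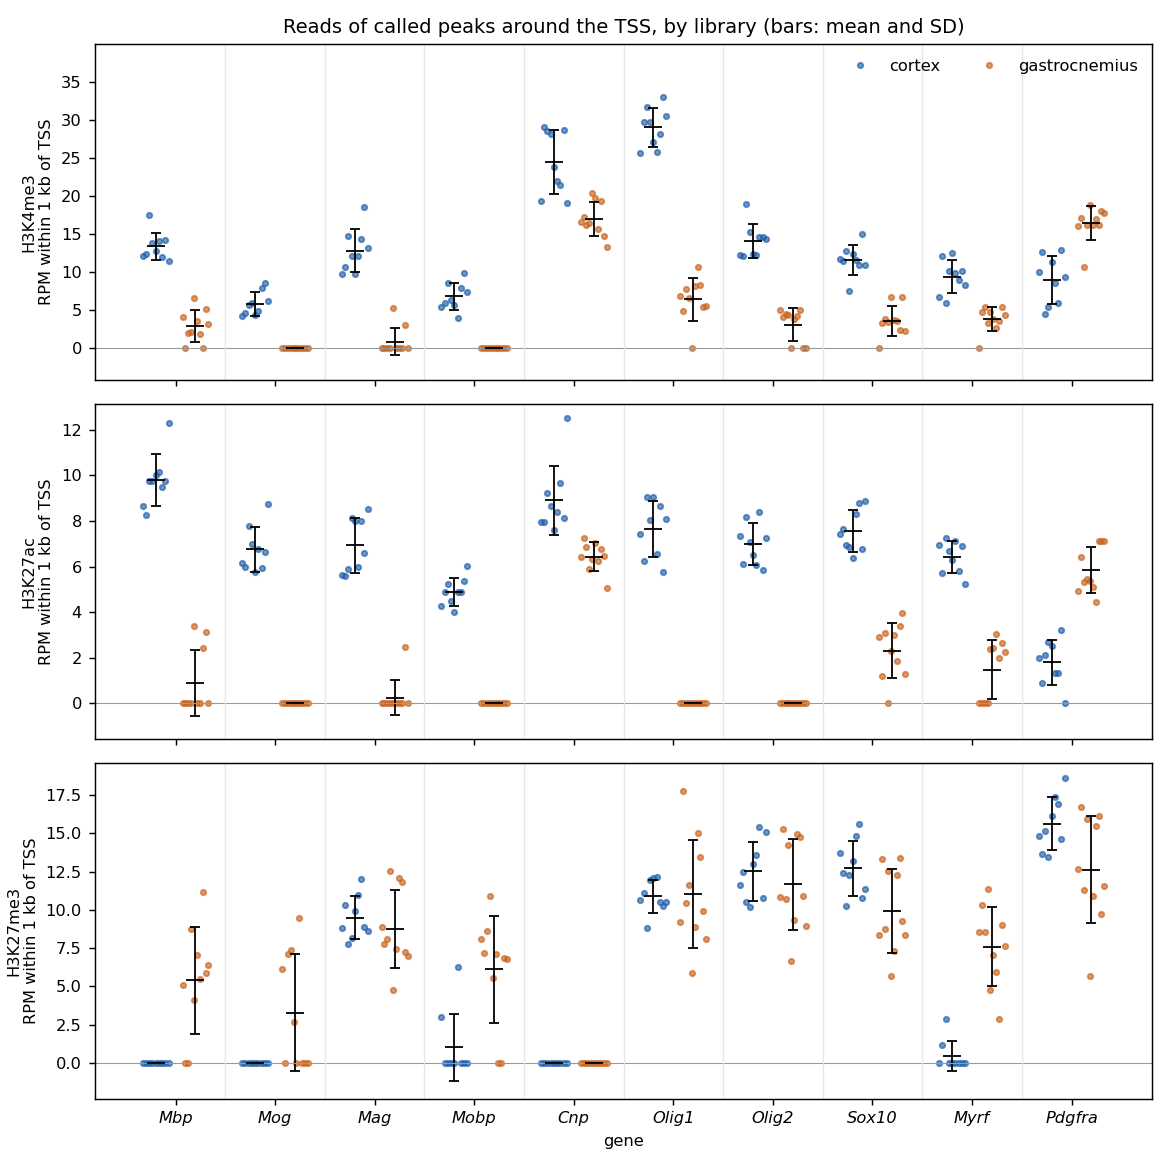
Reads of called peaks within 1 kb of the TSS in RPM (y axis) for the 10 genes (x axis) in each cortex (blue) and gastrocnemius (orange) library, with mean and SD as black bars; the panels are H3K4me3, H3K27ac and H3K27me3. Olig1 had the highest cortex H3K4me3 (median 29.7 RPM), Mog and Mobp were at 0 for both active marks in gastrocnemius, and Pdgfra was the only gene with lower active marks in cortex.

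H3K27ac at the TSS also split the tissues. Every cortex library had a peak at all members except for Pdgfra, which was called in 8 of 9. No gastrocnemius library had a peak at Mog, Mobp, Olig1 or Olig2. Counting reads, 8 members were higher in cortex (31.1% of all genes tested) and 1 was lower (24.4%), with a median log2 difference over the members of 3.92 against 0.04 over all 17509 genes tested. Counting calls, Mbp, Mog, Mag, Mobp, Olig1 and Olig2 had a peak more often in cortex, 6 members where 9.22% of genes with a peak passed. Myrf was added without the lowest-scoring peaks (FDR 0.00657) and with equally many peaks per library (FDR 0.0246), and with a peak over at least 50% of the window Pdgfra was called less often in cortex (FDR 0.00744).

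For Mbp, acetylation ranged from 8.26 to 12.3 RPM in cortex (median 9.74), while 7 of 10 gastrocnemius libraries had no peak and the highest had 3.38. The difference of 3.25 ± 0.86 passed the test (FDR 0.00381), and so did the calls (9 of 9 against 3 of 10, Fisher's exact test, FDR 0.0265). Mag had 5.57 to 8.51 RPM in cortex and a peak in a single gastrocnemius library, replicate 9, with 2.46. Olig1 and Olig2 had 5.74 to 9.06 and 5.84 to 8.38 RPM in cortex, with medians of 8.02 and 7.08. No muscle library had an acetylation peak there, while 9 and 7 had H3K4me3. Mog reached 5.76 to 8.75 RPM (median 6.62) and Mobp 3.99 to 6.02 (median 4.89). The calls of these 4 genes had the smallest p that 9 against 10 libraries allow (1.08e-05, FDR 0.000186, Fisher's exact test).

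Sox10 and Myrf kept acetylation in muscle as well. Sox10 had 6.36 to 8.89 RPM in cortex (median 7.44) and 0 to 3.95 in gastrocnemius (median 2.60), 1.41 ± 0.40 apart (FDR 0.00611). Myrf had 5.22 to 7.23 RPM against 0 to 3.04, with a peak in 6 of 10 gastrocnemius libraries and a difference of 1.90 ± 0.75 (FDR 0.0417). Cnp carried 7.61 to 12.5 RPM in cortex and 5.07 to 7.27 in gastrocnemius. These ranges did not overlap, and the scaled difference was 0.15 ± 0.10 (FDR 0.202). Without TMM factors it was 0.45 (FDR 0.000246), in a setting that raised the share of higher genes among those called from 56.1% to 80.1%. It was also called with a window of 3 kb (0.26, FDR 0.0129), at the lowest read density (0.23, FDR 0.0293), and without gastrocnemius replicate 3 (0.20, FDR 0.0771) or replicate 6 (0.22, FDR 0.0421). Pdgfra was lower in cortex, with 0 to 3.23 RPM (median 1.99) against 4.42 to 7.13 (median 5.39), a difference of -1.89 ± 0.34 (FDR 0.000126). This depends on the start used: at its second annotated TSS, 3.92 kb downstream, the means were 5.73 against 6.16 RPM, on which no test was run. In 9 members all cortex libraries were above all gastrocnemius libraries, against 13.9% of genes with a peak, and in Pdgfra all were below, against 4.21%.

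H3K27me3 fell on the members in 3 arrangements: some were marked mainly in muscle, others in both tissues, and Cnp in neither. Mbp, Mog and Cnp had no H3K27me3 peak at the TSS in any cortex library, and Mobp and Myrf had one in 2 of 9. In gastrocnemius Mbp and Mobp were called in 8 of 10 libraries, Mog in 5 and Myrf in 10. Mag, Olig1, Olig2, Sox10 and Pdgfra carried the mark in all 19 libraries, and Cnp in none. Of the 8 members with enough reads for the test (Mog and Cnp were below the minimum), 2 were higher in cortex (18.8% of all genes tested) and 3 lower (23.9%). The higher members numbered 1 without TMM factors, 5 at the lowest read density and 0 at a change of at least 2-fold, and the lower ones 5 when all reads of overlapping peaks were counted. The median log2 difference was 0.05 over these 8 and -0.01 over all 7098 genes tested.

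Of the members marked mainly in muscle, Myrf had 2.87 to 11.4 RPM in gastrocnemius with a median of 8.08. In cortex 7 libraries had no peak and the highest had 2.83, so the tissues did not overlap (log2 difference -3.90 ± 1.02, FDR 0.00455). No other member was lower in cortex in every library, and 3.9% of genes with a peak were. In no member was every cortex library the higher, as in 3.76% of genes with a peak. Mbp reached 11.2 RPM in gastrocnemius with a median of 5.67, and its calls differed (0 of 9 against 8 of 10, Fisher's exact test, FDR 0.0055). Mobp had a median of 6.98 in gastrocnemius and values of 2.998 and 6.25 RPM in the 2 cortex libraries with a peak. Its difference of -2.81 ± 1.27 was near the threshold (FDR 0.0929), and the call was lost when any of 15 of the 19 libraries was left out, gastrocnemius replicate 5 among them (FDR 0.107 to 0.126), with differences of -2.84 to -2.64. Without cortex replicate 6 the difference was -4.06 (FDR 0.0245). The call was also lost with a window of 3 kb (-1.40, FDR 0.164), without TMM factors (-2.56, FDR 0.136), in the libraries without a run number (-2.15, FDR 0.38) and with the run number as covariate (-2.98, FDR 0.117). Peaks were called less often in cortex at 3 members (Mbp, Mobp and Myrf; 13.3% of genes with a peak), and the call of Mobp was again lost with any of 15 libraries left out and with a window of 3 kb (FDR 0.475), where Mog passed (FDR 0.0191). In the 7 cortex and 6 gastrocnemius libraries whose file names hold no run number, none of the 3 passed (FDR 0.1004 for Mbp and Myrf and 0.644 for Mobp).

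At the promoters marked in both tissues the differences were smaller. Olig1 had 8.81 to 12.2 RPM in cortex and 5.90 to 17.8 in gastrocnemius, with a difference of 0.00 ± 0.07 (FDR 0.985). Olig2 had 10.2 to 15.4 against 6.66 to 15.3, with a difference of 0.09 ± 0.05 (FDR 0.386). Mag had 7.77 to 12.0 against 4.79 to 12.5, 0.12 ± 0.08 apart (FDR 0.332). For Olig2 and Mag the edgeR p was 0.254 and 0.205, larger than these SE would give, so the SE overstate the precision. The test does not show that these levels are equal, and when all reads of overlapping peaks were counted Mag was called lower in cortex (-0.85, FDR 0.0151) and Olig2 higher (0.41, FDR 0.0221). With uncalled windows set to the lowest read density both were called higher in cortex (Mag 0.34, FDR 0.00556, and Olig2 0.31, FDR 0.00456), as was Olig1 (0.22, FDR 0.0938), so the direction for Mag depended on the setting, and Olig2 was also called with a window of 3 kb (0.14, FDR 0.0476). Sox10 was higher in cortex by 0.35 ± 0.06 (FDR 0.000284), from 10.2 to 15.6 RPM against 5.70 to 13.4. Pdgfra had the most H3K27me3 of the 10 TSS windows, 13.4 to 18.6 RPM in cortex and 5.69 to 16.7 in gastrocnemius, and was also 0.35 ± 0.06 higher in cortex (FDR 5.66e-05). The Pdgfra call was lost without TMM factors (0.34, FDR 0.117). All 5 ranges overlapped between tissues.

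Active marks and H3K27me3 were called over the same windows in the same animal. In 9 of 9 mice the cortex TSS windows of Mag, Olig1, Olig2 and Sox10 held peaks of all 3 marks, and that of Pdgfra did in 8. In gastrocnemius all 3 marks were present in 10 of 10 mice at Pdgfra, 8 at Sox10, 6 at Myrf, 2 at Mbp and 1 at Mag. At Olig1 and Olig2 no muscle had all 3, while H3K4me3 and H3K27me3 were both present in 9 and 7 mice. From 1 kb before the TSS to the end of the gene, H3K27ac and H3K27me3 peaks of the same cortex covered a median of 100% of Olig1, Olig2 and Sox10 together, 60.7% of Mag, 28.0% of Myrf, 25% of Mobp, 8.51% of Pdgfra and 7.45% of Mbp, and 0% of Mog and Cnp. In the same gastrocnemius the medians were 88.7% of Sox10, 14.5% of Pdgfra, 12.4% of Mbp and 2.98% of Myrf, and 0% of the others. In bulk tissue these marks can lie on different cells.

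**Figure D2:**
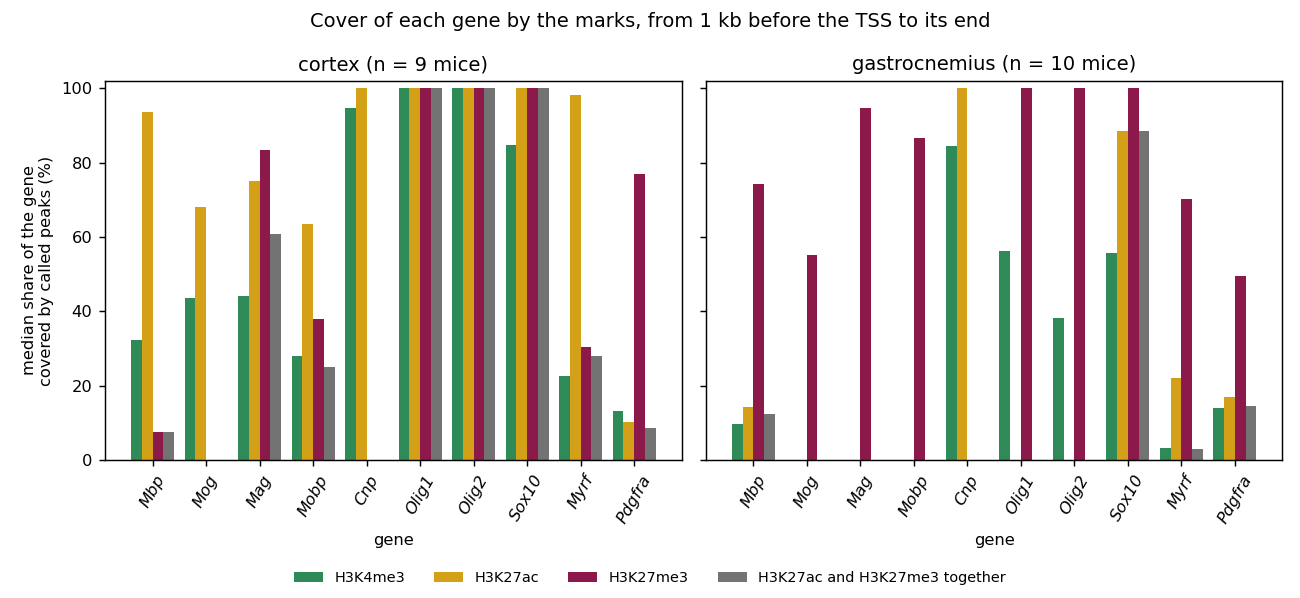
Median share of each gene covered by called peaks (y axis, %) from 1 kb before the TSS to the gene end, for 9 cortices and 10 gastrocnemius muscles; bars are H3K4me3, H3K27ac, H3K27me3 and the stretch under both H3K27ac and H3K27me3 in the same mouse. Mbp was covered by H3K27ac over 93.8% in cortex and by H3K27me3 over 74.2% in gastrocnemius, while Olig1, Olig2 and Sox10 were under both marks over 100% in cortex.

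Peak width, the summed length of the peaks that touch the TSS window, told the tissues apart for H3K4me3 at every member. A library without a peak had width 0. For Mog and Mobp, which had no H3K4me3 peak in gastrocnemius, the width test therefore repeats the peak calls. A two-sided exact permutation test of the difference in mean width over all 92378 assignments of the libraries to 9 and 10 found 9 members wider in cortex, where 15.6% of genes with a peak were, and Pdgfra narrower, where 59.6% were. Olig2 peaks spanned 8.2 to 12.0 kb in cortex (median 10.4) and 0 to 3.2 kb in gastrocnemius (median 1.6). Mbp peaks spanned 9.2 to 13.6 kb against 0 to 7.4, and Sox10 peaks, the widest of the members in cortex, 9.2 to 14.4 kb against 0 to 11.6. Olig1, a gene of 2.17 kb, had narrower peaks, of 3.4 to 4.2 kb against 0 to 2.6. Cnp, whose reads did not pass the test, was 1.26 kb wider on average in cortex (7.2 to 9.0 kb against 5.6 to 7.4, exact permutation test, FDR 0.000901). Pdgfra peaks were 3.50 kb narrower on average in cortex, from 4.6 to 10.6 kb against 9.0 to 15.8 (FDR 0.00193).

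H3K27ac peaks in cortex were on average wider than those of H3K4me3 at every member but Pdgfra. There, 8 members were wider in cortex (18.9% of genes with a peak), and Pdgfra was narrower (47% of genes). For Mog, Mobp, Olig1 and Olig2, which had no H3K27ac peak in gastrocnemius, this repeats the peak calls. Myrf peaks had 16.0 to 51.0 kb in cortex (median 38.4) and 0 to 3.4 kb in gastrocnemius. Mbp peaks had 24.8 to 56.4 kb against 0 to 5.8, and Sox10 peaks 20.6 to 50.4 kb against 0 to 16.8. Cnp also lay in wide acetylated peaks, which reached past the ends of the gene in both tissues (19.6 to 35.8 kb against 17 to 68, FDR 0.123). Without gastrocnemius replicate 4 or 8 they were called narrower in cortex (FDR 0.06 and 0.0421). For H3K27me3, 5 members had a smaller mean width in cortex: Mbp, Mog, Mag, Mobp and Myrf (23.1% of genes with a peak). The wider members numbered 0 (14.7%), also at an unadjusted p under 0.05 in the exact permutation test. Mbp and Mog had no peak in cortex and Mobp and Myrf had one in 2 of 9 libraries, so there the test mostly repeats the peak calls. Mag peaks had 4.2 to 12.2 kb in cortex and 5.8 to 31.6 kb in gastrocnemius (FDR 0.0256). With the mouse as block the Mag and Mog calls were lost (FDR 0.118 and 0.262), and the Mog call was lost with any of 14 libraries left out, without the lowest-scoring peaks (FDR 0.366) and with equally many peaks per library (FDR 0.19). The Mag call was also lost in the libraries without a run number (-4.44 kb, FDR 0.155). Olig2 lay in the widest H3K27me3 domain of the TSS windows in cortex, 24.2 to 46.0 kb, with 25.8 to 47.6 kb in gastrocnemius and a difference that did not pass the test (FDR 0.524), though in the libraries without a run number it was called wider in cortex (9.03 kb, FDR 0.0968).

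**Figure D3:**
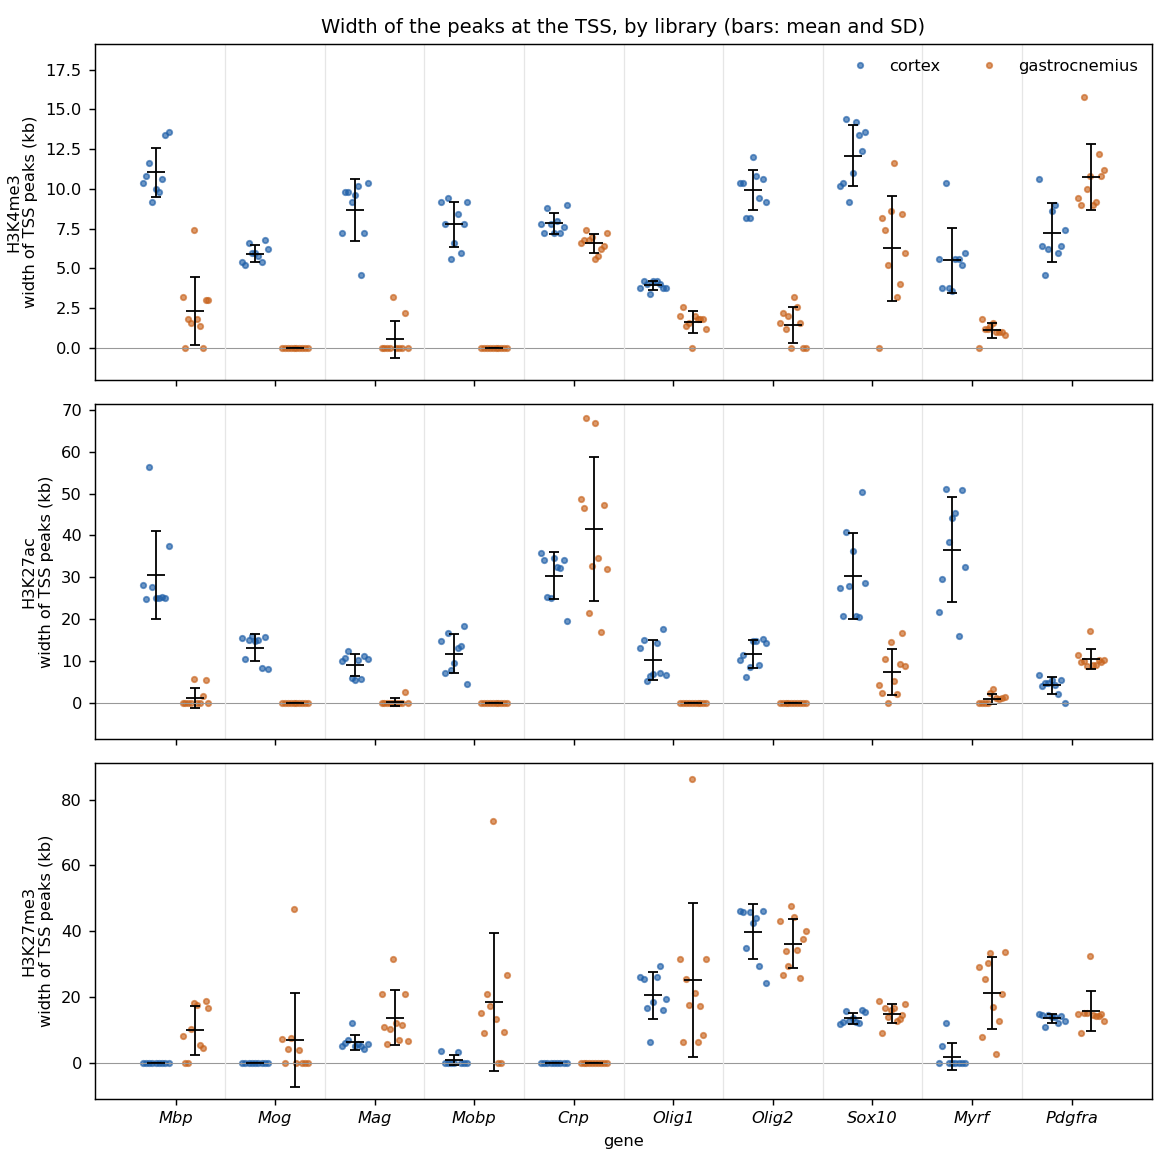
Summed width of the peaks at the TSS in kb (y axis) for the 10 genes (x axis) in each cortex (blue) and gastrocnemius (orange) library, with mean and SD as black bars; the panels are the 3 marks. H3K27ac peaks of Myrf and Mbp spanned 16.0 to 56.4 kb in cortex and at most 5.8 kb in gastrocnemius.

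In the gene bodies the active marks separated the tissues as well. A peak that spans the TSS and the body gave both windows the same reads per kb, because its reads were shared evenly. This was so for all 3 marks of Olig2 in cortex. It was also so for the H3K27ac of Cnp in both tissues and of Sox10 in cortex. These body values are not separate measurements. For H3K4me3, 9 members were higher in cortex (29% of genes tested) and 1 was lower (33%). With uncalled windows set to the lowest read density 7 were higher: the Myrf call was lost (0.03, FDR 0.97) and Mobp turned to -0.14 (FDR 0.489). For H3K27ac, 9 were higher (38.1%) and 1 lower (33.2%). Cnp passed here for H3K4me3, with 71.9 to 95.7 RPM in the cortex body and 35.3 to 49.6 in gastrocnemius (1.17 ± 0.07, FDR 2.29e-11). Its H3K27ac passed with 22.1 to 36.2 RPM against 14.7 to 21.1 (0.51 ± 0.09, FDR 6.25e-05). Per kb this was the same acetylation as at the TSS, 4.45 RPM in cortex and 3.22 in gastrocnemius on average. At the TSS it did not pass (0.15, FDR 0.202), and the 2 log2 differences differ through the scaling of each fit. The Cnp acetylation call was lost when all reads of overlapping peaks were counted (0.10, FDR 0.709). Per length of gene body, Olig1 and Cnp had the most H3K4me3 in cortex, 15.4 and 14.0 RPM per kb on average, and Pdgfra the least, 0.609. This order goes with the length of the body: that of Olig1 is 1.17 kb and lay wholly under its TSS peak. The Cnp body of 5.8 kb was covered over 98.2% on average, and that of Pdgfra, 45.0 kb long, over 10.8%.

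Mbp and Myrf held the most acetylation in total. The Mbp body had 91.8 to 127 RPM of H3K27ac in cortex and 3.27 to 16.2 in gastrocnemius, a difference of 3.73 ± 0.30 (FDR 1.25e-09). Its called peaks covered 91.3% of the body on average in cortex and 18.4% in gastrocnemius. The Myrf body had 97.3 to 130 RPM against 2.09 to 18.2, a difference of 3.52 ± 0.29 (FDR 1.45e-09), with 98.1% covered in cortex and 17.9% in gastrocnemius. Mobp had 29.2 to 63.8 RPM in cortex and no peak in any gastrocnemius library. Sox10 had H3K27ac in its body in all 10 muscles, at 7.93 to 16.9 RPM against 27.3 to 38.1 in cortex (1.38 ± 0.11, FDR 1.48e-09). Pdgfra overlapped between tissues in both marks. It fell by 0.39 ± 0.14 for H3K4me3 (FDR 0.0274) and by 0.51 ± 0.19 for H3K27ac (FDR 0.022). The H3K4me3 call was lost in the libraries without a run number (FDR 0.179), and the H3K27ac call was lost there (FDR 0.135), with the mouse as block (-0.38, FDR 0.106), without the lowest-scoring peaks (FDR 0.272) and with equally many peaks per library (FDR 0.127).

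H3K27me3 in the bodies was lower in cortex for 5 members (30.2% of genes tested) and higher for 2 (26.6%). At the lowest read density 3 were lower, with Mag and Mog lost, and none of the higher ones reached 2-fold. Mbp had 50.8 to 117 RPM in gastrocnemius and 0 to 22.5 in cortex, where 6 of 9 libraries had a peak (-3.39 ± 0.78, FDR 0.0015). Mobp had 84.9 to 161 RPM in gastrocnemius against 18.7 to 95.9 in cortex (-1.11 ± 0.21, FDR 0.00025), so that this gene held the mark inside its body in every cortex although it was rarely called at the TSS. Myrf showed the same arrangement, with 28.7 to 55.8 RPM in cortex and 58.2 to 122 in gastrocnemius (-1.13 ± 0.12, FDR 2.95e-07). Mog had no body peak in any cortex library and up to 41.7 RPM in gastrocnemius, with a peak in 9 of 10, and at the lowest read density its difference turned to 0.12 (FDR 1). Of the 5 members called lower, Mag differed least (-0.30 ± 0.11, FDR 0.0332), with ranges that overlapped, and its call was lost when all reads of overlapping peaks were counted (FDR 0.356) or the lowest read density was used (-0.09, FDR 1). Pdgfra was higher in cortex, at 142 to 199 RPM against 61.7 to 119 without overlap (0.97 ± 0.11, FDR 8.99e-07), and Sox10 by 0.41 ± 0.10 (FDR 0.00241, or 0.143 when all reads of overlapping peaks were counted). Olig1 and Olig2 did not pass the test in the body (0.03 ± 0.21 and 0.11 ± 0.15), but Olig2 was called higher in cortex when all reads of overlapping peaks were counted (0.30, FDR 0.0365) and at the lowest read density (0.31, FDR 0.00277).

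**Figure D4:**
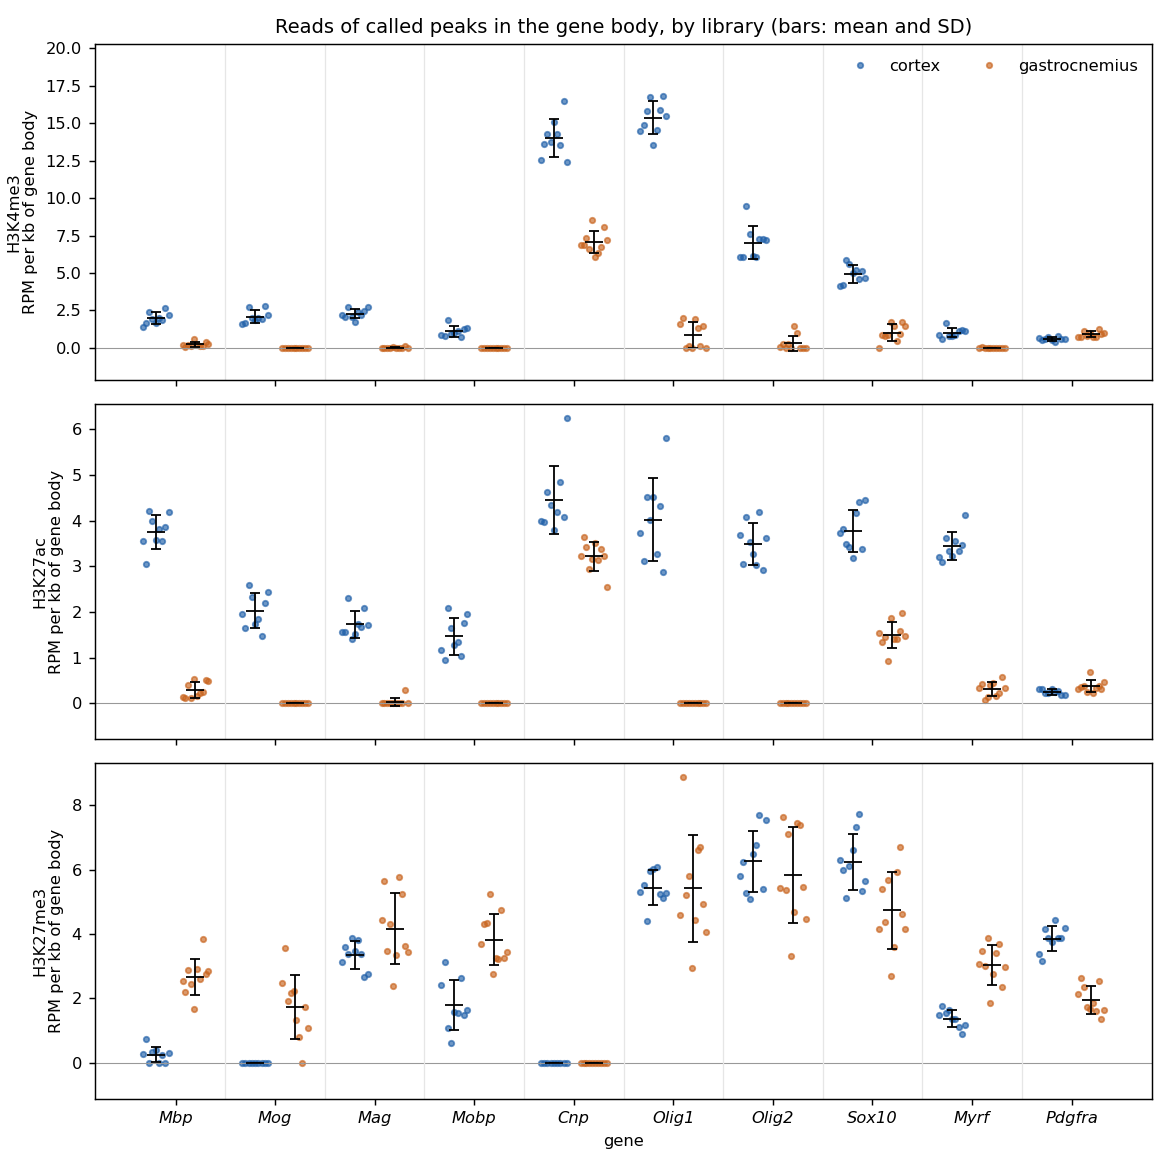
Reads of called peaks in the gene body in RPM per kb of body (y axis) for the 10 genes (x axis) in each cortex (blue) and gastrocnemius (orange) library, with mean and SD as black bars; the panels are the 3 marks. In cortex Olig1 and Cnp, whose short bodies lay almost wholly under called peaks, had the most H3K4me3 per kb (means of 15.4 and 14.0). For H3K27me3 Pdgfra was higher in cortex (3.86 against 1.95) while Mbp, Mobp and Myrf were higher in gastrocnemius.

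Along the genes, the peaks of different libraries were merged into sites, and sites present in at least 3 libraries of a tissue were kept. Around Myrf a merged acetylated region of 129.8 kb, from -69.7 to 60.1 kb of the TSS, held a mean of 317 RPM in cortex and 66.0 in gastrocnemius, and it reached well beyond the gene. In cortex the Myrf H3K4me3 site ran from -0.85 to 11.1 kb with 41.3 RPM, and in gastrocnemius it held 4.02 RPM. H3K27me3 at Myrf covered -8.45 to 25.5 kb and was found in all 19 libraries, with 43.7 RPM in cortex and 123 in gastrocnemius. Its cortex peaks lay inside the gene: 100% of cortex libraries had one 10.1 kb from the TSS and 0% at 0.1 kb, and those of the 2 libraries called at the TSS began within 1 kb after it.

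Mobp had 4 H3K4me3 sites in cortex that no gastrocnemius library held, the main one from -0.74 to 8.86 kb with 36.3 RPM. It also had an acetylated site inside the gene, at 14.5 to 22.5 kb, and one at 23.1 to 37.3 kb that began in the gene and ran past its end, both present in 9 of 9 cortex and 0 of 10 gastrocnemius libraries. Mbp is transcribed from more than 1 start. The TSS used here starts the classic myelin forms, and another lies upstream, at -79.3 kb, and starts the longer Golli forms. At the upstream start every library of both tissues had an H3K4me3 peak, with 35.8 ± 3.84 RPM in cortex (SD, n = 9) and 24.0 ± 4.64 in gastrocnemius (SD, n = 10). No test was run on the other starts. H3K27ac there was 8.88 ± 1.87 against 6.58 ± 1.71 RPM, and H3K27me3 was called in 5 of 9 cortex and 10 of 10 gastrocnemius libraries.

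Olig2 and Olig1 each had their own sites. The H3K27me3 site of Olig2 spanned -25.7 to 23.3 kb, with 254 RPM in cortex and 220 in gastrocnemius, and its acetylated site from -6.15 to 9.65 kb was found in 9 of 9 cortices and no muscle. Olig1 had an acetylated site from -13.0 to 4.83 kb and another at 7.03 to 14.8 kb, in 9 and 8 cortex libraries, and neither in muscle. The Sox10 H3K27me3 peak took in the start of the neighbour on the other strand, Gm10863, which lies 1.58 kb away, in all libraries, so the reads of this pair cannot be told apart. Pdgfra had a dip in H3K27me3: at 5.1 kb from its TSS 0% of cortex libraries had a peak, against 100% at the TSS. Its second annotated TSS, 3.92 kb downstream, lay under peaks of H3K4me3 and H3K27ac in all 19 libraries. The values there were 11.7 ± 1.88 against 16.4 ± 2.24 RPM of H3K4me3 and 5.73 ± 1.24 against 6.16 ± 1.04 of H3K27ac. In gastrocnemius the H3K4me3 value is that of the first TSS, since the same peak covers both windows and its reads were shared evenly, so it is no separate measurement. In cortex 100% of libraries had an acetylated peak 4.3 kb from the upstream start and 0% at 2.9 kb before it.

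**Figure D5:**
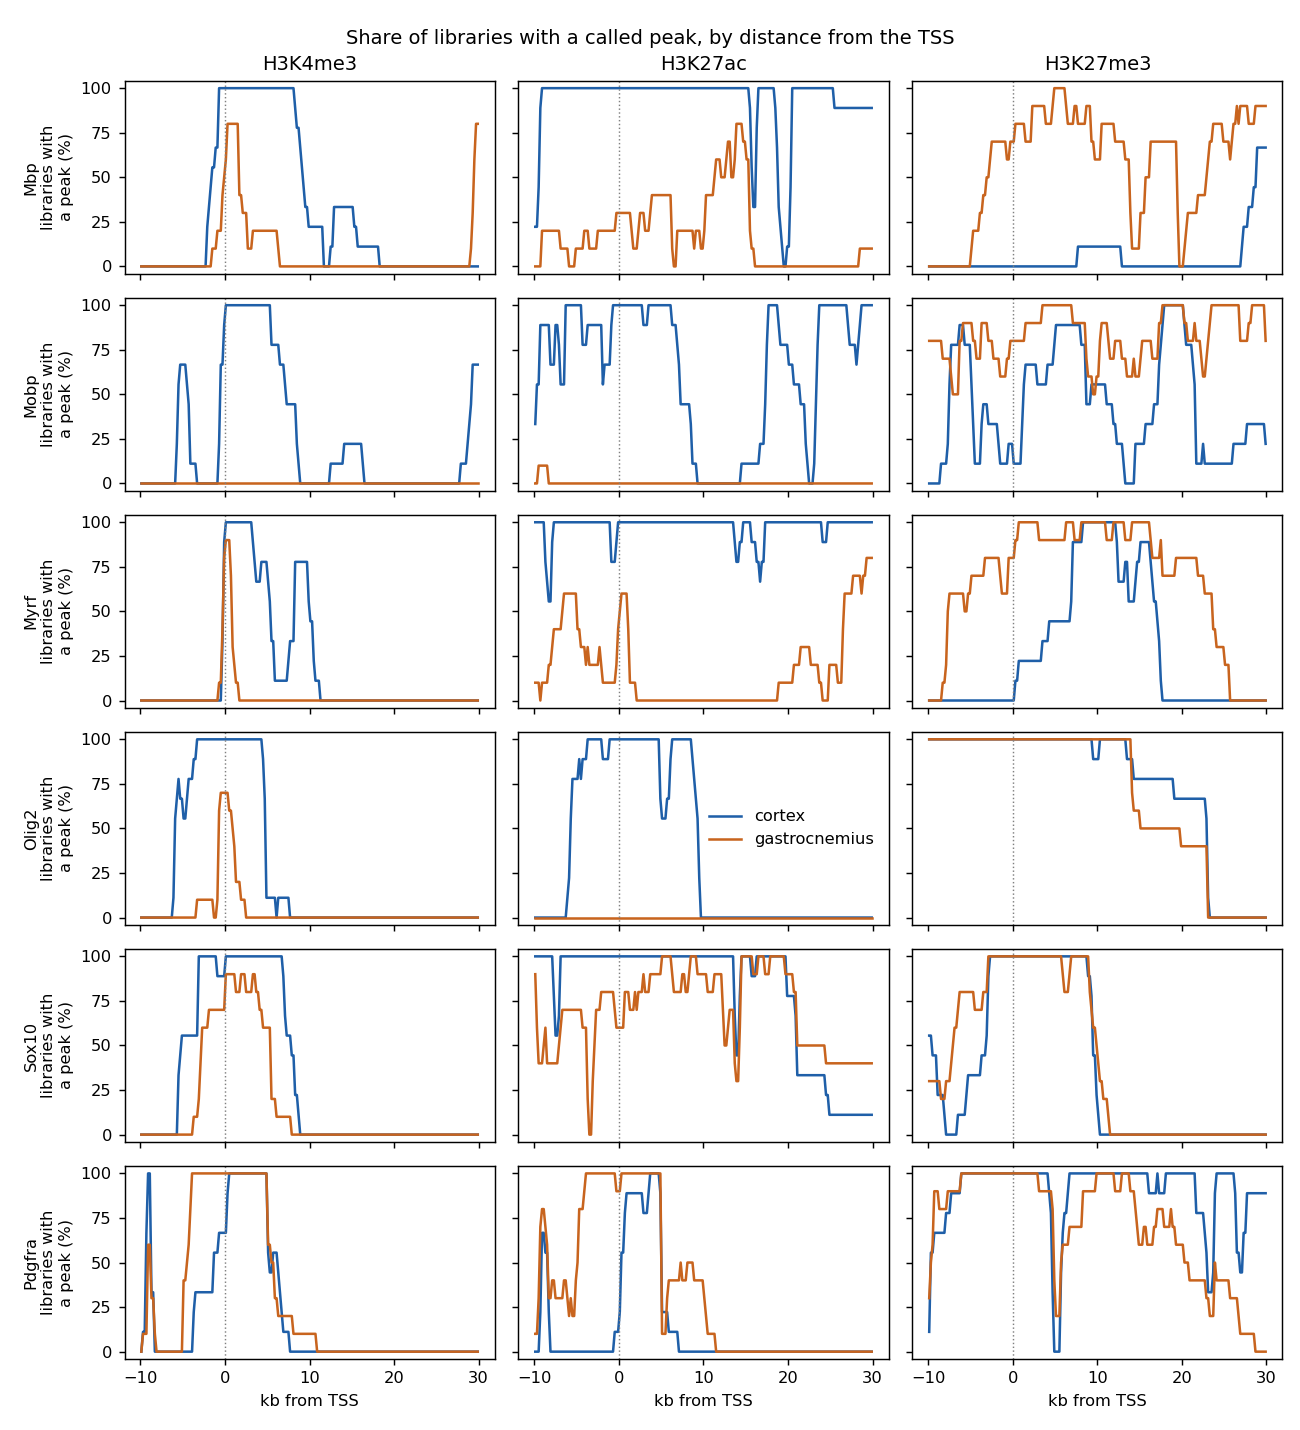
Share of libraries with a called peak (y axis, %) by distance from the TSS in kb (x axis, 0 marked by the dotted line) for 6 genes (rows) and the 3 marks (columns), in cortex (blue) and gastrocnemius (orange). For H3K27me3, 100% of cortex libraries had a peak inside Myrf at 10.1 kb and 0% at 0.1 kb, and at Pdgfra 0% had one at 5.1 kb.

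Other genes of the lineage were taken from lists chosen with results of these data known. Of 22 further myelin and mature oligodendrocyte genes, 15 of 21 tested had more H3K4me3 at the TSS in cortex (31.9% of all genes tested) and 3 less (26.9%), with a median log2 difference of 1.68 against 0.04 over all genes. For H3K27ac 16 of 21 were higher (31.1% of all genes) and 3 lower (24.4%). In the gene body all 22 were higher for H3K4me3 (29% of all genes) and for H3K27ac (38.1%), and for H3K27me3 at the TSS 6 of 16 tested were lower (23.9%) and 0 higher (18.8%). Of the 16 genes of precursors and lineage regulators, set beside the same shares, 12 were higher and 3 lower for H3K4me3 and 9 and 4 for H3K27ac. For H3K27me3 3 of 15 were higher and 3 lower, shares near those of all genes. The 3 called with less H3K4me3 in cortex among the myelin genes were Aspa (-0.47 ± 0.14), Tspan2 (-0.44 ± 0.08) and Car2 (-0.29 ± 0.10), and among the precursor genes Cspg4 (-1.21 ± 0.12), Tcf7l2 (-0.95 ± 0.10) and Sox6 (-1.15 ± 0.19), named after their values were seen. Cspg4 encodes the proteoglycan NG2, a marker of precursors that pericytes also carry.

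The genes of the lists with the highest fitted difference had no peak in one of the tissues, so the order among them is not read as a result, and genes with reads in both tissues ranked below them. For H3K4me3 they were Cntn2, a contactin of the axon-glia junction (16.2 to 32.9 RPM in cortex), Tnr, the matrix protein tenascin-R (19.5 to 27), and Omg, the oligodendrocyte myelin glycoprotein (12.4 to 19.8). For H3K27ac they were Gpr37 (8.23 to 14.9 RPM), a receptor of the lineage, Nfasc (8.07 to 12.8), a neurofascin of the node and paranode, and Tnr (7.44 to 11.2). None of these had a peak of the mark it is listed under in any gastrocnemius library, so no fold is given. For H3K27me3 Tnr and Opalin had no peak in cortex and were called in 9 and 8 gastrocnemius libraries, with medians of 7.04 and 3.82 RPM. Tcf7l2, a Wnt pathway transcription factor, was marked in 7 cortex libraries (median 6.90 RPM) and in no muscle. Several of these genes are also expressed by neurons.

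The 11 Schwann cell markers summed to 64.4 to 91.8 RPM of H3K4me3 in cortex and to 82.4 to 119 in gastrocnemius. They went both ways: of 10 tested, 3 were higher in cortex (31.9% of all genes) and 5 lower (26.9%). Prx, the periaxin of peripheral myelin, had no H3K4me3 peak in cortex and was called in 10 of 10 gastrocnemius libraries, with a median of 2.62 RPM. The reverse held for Cdh19, a cadherin, with a peak in 9 of 9 cortex and 0 of 10 gastrocnemius libraries, and Gldn (1.94, FDR 0.0254) and Pou3f1 (0.39, FDR 0.00119) were also higher in cortex. Ncmap had no peak in either tissue. The part of these markers in the muscle levels of Sox10, Mbp and Cnp was not tested. Astrocyte markers summed to 40.01 to 56.6 RPM in cortex and 19.9 to 33.8 in gastrocnemius. Of 3 tested 2 were higher in cortex, and Aldh1l1 was lower (7.17 to 10.9 RPM against 10.01 to 21.7, log2 difference -1.15, FDR 4.41e-07).

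Over all 57 libraries, the genes whose profile of the 3 marks was most like the mean of the members were Cdk5r2, Pgr, Kcnk1, Cacna1e and Grid1, with Pearson's r of 0.938 to 0.954 on log2(RPM + 1). These points share libraries, depth and the split by tissue and mark, and the correlations are given as a description. Among the members themselves r with their mean ran from 0.69 to 0.85 except for Cnp (0.19) and Pdgfra (-0.12). Cdk5r2, the activator of a neuronal kinase, had means of 50.4 RPM of H3K4me3 in cortex and 5.64 in gastrocnemius. Between cortex libraries the coefficient of variation at the TSS was 11.1% to 17.6% for the H3K27ac of 9 members and 56.0% for that of Pdgfra, and 8.88% to 35.0% for H3K4me3.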

How the data were processed

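H3K4me3, H3K27ac and H3K27me3 ChIP-seq was analysed for 9 cortex and 10 gastrocnemius libraries per mark. Alignment to mm10 (BWA), filtering (SAMtools) and peak calling in each library alone (epic2) were done by the authors, in windows of 200 bp. For epic2 no version was found in the sources used here. The peak lists hold no input library. The deposited values are counts of reads per peak, not normalized, and the epic2 score of each peak, which was used only to rank peaks. Sites too weak to be called are missing from such lists, so a value of 0 means no called peak.

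Reads of a peak were shared evenly over its length, summed within 1 kb of the TSS and over the gene body of curated RefSeq genes, and rounded. Genes with a mean of at least 10 reads were tested with the quasi-likelihood test of edgeR 4.0.16 (R 4.3.3, limma 3.58.1) with TMM factors and Benjamini-Hochberg adjustment, and called at an FDR under 0.1. For peak calls Fisher's exact test was used and for widths an exact permutation test, both two-sided, with Python 3.11.15, SciPy 1.17.1, NumPy 2.4.6 and pandas 2.3.3. For 9 libraries against 10 the smallest p of either test is 1.08e-05. The depth per library, 2.99 to 27.04 M reads in autosomal peaks, limits which sites could be called. Both edgeR and the exact tests were tested on simulated data first. The simulated reads and widths did not model windows left uncalled in some libraries, so this does not show how the tests behave there.

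The mouse of each library was read from the deposited file names: replicate numbers 1 to 4 are the same mouse in both tissues, later numbers are shifted, and the mouse of gastrocnemius replicate 5 has no cortex library. The samples are therefore paired by animal. Deviations of the paired libraries from their tissue means correlated at -0.077 to 0.051 for H3K4me3, -0.068 to 0.058 for H3K27ac and -0.033 to 0.060 for H3K27me3 over 9 mice. Some file names hold a run number (2 cortex and 4 gastrocnemius libraries per mark), and these were too few for a comparison of their own.

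Alternatives were other scalings (no TMM factors, DESeq2 1.42.0), no filter, all reads of overlapping peaks, uncalled windows set to the lowest read density, fewer peaks, a window of 3 kb, a peak over at least 50% of the window, the mouse as block, the run number as covariate or the libraries without one, a change of at least 2-fold, and each library left out. In the setting with the lowest read density the edgeR dispersion trend was fitted by loess for H3K4me3 and H3K27me3, because the default trend could not be fitted.

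The members and lists were chosen with earlier results of these data known. All members are named. Of the related lists, the 3 called genes with the largest change per mark at the TSS are named, as are genes that share an H3K27me3 peak with a member's TSS and the 5 genes most like the mean member profile. The promoter sequences of Mbp, Olig1, Sox10 and Myrf were not used here.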

Additional observations from a re-analysis of the deposited data

Results flagged for a closer look

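Of 50 groups of 9 or 10 libraries tested, 9 held a library whose gap to its neighbour was large for the range of the group (Dixon's criterion). For normally distributed values chance flags about 1 in 20 groups. The flagged groups of Mag H3K27ac in gastrocnemius and of Mobp and Myrf H3K27me3 in cortex were mostly 0, so this rate does not apply to them. For H3K4me3 at the TSS, cortex replicate 3 was highest for Mbp (17.5 RPM, next 14.2) and for Olig2 (18.9, next 15.3). Gastrocnemius replicate 1 was lowest for Myrf (0, next 2.57), and gastrocnemius replicate 3 was lowest for Pdgfra (10.6, next 16.1). For H3K27ac, cortex replicate 9, the shallowest library of that mark, was highest for Mbp (12.3, next 10.1) and for Cnp (12.5, next 9.68), and gastrocnemius replicate 9 was the only muscle library with a peak at Mag (2.46). For H3K27me3, cortex replicate 6 was highest for Mobp (6.25, next 2.998) and cortex replicate 3 for Myrf (2.83, next 1.18).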

How the results depend on the processing

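With the mouse as replicate block, the paired fit gave 3 members with narrower H3K27me3 in place of 5, 0 with less H3K27ac in the body in place of 1 (Pdgfra, -0.38), and called Cnp for H3K4me3 at the TSS (0.25); no other call changed. Libraries without a run number gave 0 members with less H3K4me3 or H3K27ac in the body, 0 with fewer H3K27me3 calls in place of 3, and 1 with wider H3K27me3 (Olig2, 9.03 kb, FDR 0.0968). Without the lowest-scoring peaks, or with equally many peaks per library, 5 members in place of 3 had more H3K4me3 calls and 0 less H3K27ac in the body. With a peak over at least 50% of the window, 1 member (Pdgfra) had fewer H3K27ac calls in cortex, against 0. For H3K27me3 reads at the TSS the higher members numbered 1 without TMM factors and 5 at the lowest read density, in place of 2, and the lower ones 5 with all reads of overlapping peaks, in place of 3. In the H3K27me3 body 3 were lower at the lowest read density, in place of 5. Requiring at least 2-fold left 0 members with more H3K27me3 at the TSS or in the body and 0 with less H3K4me3 or H3K27ac in the body.

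Leaving out each library in turn gave 8 to 9 members with more H3K4me3 at the TSS and 1 with less, 9 and 1 in the body, 3 and 0 by calls, and 9 and 1 by width. For H3K27ac the ranges were 8 to 9 and 1, 9 and 1, 6 and 0, and 8 and 1 to 2. For H3K27me3 they were 2 and 2 to 4, 2 and 5, 0 and 2 to 3, and 0 and 4 to 5.

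The direction turned mainly in values near 0. Olig1 H3K27me3 at the TSS was -0.0700 with DESeq2, -0.0153 without the lowest-scoring peaks, -0.0215 with equally many peaks, -0.0172 without run-number libraries, -0.00153 with the block, -0.0113 with the run covariate, and -0.0418 to 0.0349 with each library left out, below 0 in 8 cases. Its body value was -0.0767 without run-number libraries and -0.00540 to 0.135 with each library left out. Its width difference was 3.82 kb without run-number libraries, 2.07 kb with the block and -6.84 to 2.07 kb with each library left out, above 0 only without gastrocnemius replicate 5. Olig2 in the body was -0.0278 without run-number libraries. Mag at the TSS was -0.85 with all reads of overlapping peaks and -0.0261 at 3 kb. At the lowest read density, which fills a whole uncalled body with reads, Mobp H3K4me3 was -0.143 and Mog H3K27me3 0.120. The cause was not tested for the others. Of the member values under alternatives other than leaving out a library, 823 kept direction and side of the threshold, 26 lost a call, 24 gained one and 14 turned direction. Depth and peak calling limit the windows at 0: a weak signal there was not detectable.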
